A study of Arabidopsis thaliana with 9 samples.

Results

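The transcripts described here are encoded by the mitochondrial genome of Arabidopsis thaliana. They are cox1, nad1, nad4, ccb382 and ccb452, and each was read by 1 probe set that the platform annotation pairs with 1 gene. These 5 probe sets were among 11228 tested on the arrays. They were chosen by name after their higher signal at 8 d of FPX was known from the same arrays, so their changes are given as a description with no test. Each of the 5 names was found as a symbol or synonym of a gene on the RefSeq mitochondrial chromosome, where ccb382 is listed as ccmFN1 and ccb452 as ccmFC.

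Whole wild-type seedlings were compared at 3 times, with 3 arrays a time. The 0 d group was 4-d-old seedlings from MS medium, taken before any transfer. The FPX 2 d and FPX 8 d groups were seedlings of that starting age kept on MS medium with 45 µM FPX, a compound that the series' title describes as an inducer of callus and of shoot regeneration. The treated seedlings were therefore also 2 d or 8 d older, and no untreated group of matching age was used here, so FPX and age cannot be told apart. The 0 d raw data also belong to another series, per the series' design text, so in comparisons against 0 d any difference between array runs cannot be told apart from time. No label names a batch within the FPX arrays. The labels do not say that replicates came from separate cultures, so the spread between arrays may be technical. In RNA of whole seedlings, fewer cells of a type and less RNA per cell cannot be told apart.

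Plant mitochondria keep a small genome that encodes core subunits of the respiratory chain, while most of the chain's subunits are encoded in the nucleus and imported. NAD1 and NAD4 are membrane subunits of complex I, which oxidises NADH and passes electrons to ubiquinone, and COX1 is the catalytic core subunit of complex IV, the oxidase that reduces oxygen. The remaining pair belongs to cytochrome c maturation: CcmF proteins form part of the haem lyase that attaches haem to the c-type cytochromes, and in flowering plants ccmF is split into several genes. Transcripts of plant mitochondria are spliced and edited, nad1 from separately transcribed pieces, by proteins encoded in the nucleus. Poly(A) tails mark mitochondrial transcripts for decay in plants. The labelling followed the standard Affymetrix protocol, which is known for priming on poly(A), but no source used here gives the primer, and the same arrays are labelled with Cy3 in one place and biotin in another. Which was read is unknown, and the poly(A) state was not measured.

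The values are MAS5 signals, an intensity on a linear scale, and changes are differences of mean log2(signal + 16) with their standard error (SE) from limma, 3 arrays against 3. Because of the added 16, changes of dim probe sets are understated. A probe set was called when its Benjamini-Hochberg adjusted p over all 11228 was under 0.05. Almost the whole table differs between the times: 99.77% of probe sets pass a one-way comparison at a bound of 0.04, so the deposited probe sets were selected, and counts from them are not shares of the genome. Every adjusted p-value below was computed over this selected table. The bound of 0.05 is therefore not a rate of false calls. The median change of all probe sets was 0.17 at 2 d and 0.36 at 8 d, both against 0 d, and 0.15 between 2 d and 8 d. Arrays were close at the 75th percentile of signal, at 1046 to 1103. Their median signal rose with time, from 441 to 448 at 0 d to 502 to 507 at 2 d and 527 to 536 at 8 d. Levels of different probe sets are not read as amounts of transcript, since probes differ in brightness, and brightness serves only to place a probe set among the others on its array.

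All 5 mitochondrial transcripts gave a higher signal at 8 d than at 0 d and 2 d, with no overlap of arrays. At 2 d every member's arrays overlapped its 0 d arrays, where 76.3% of all probe sets had groups that did not overlap. The step to the higher signal thus lay between 2 d and 8 d, and its size ran from 1.56 times for ccb382 to 4.65 times for ccb452 in mean signal over 0 d. No subunit class took one end of that range, since both of these extremes were cytochrome c maturation genes.

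**Figure D1:**
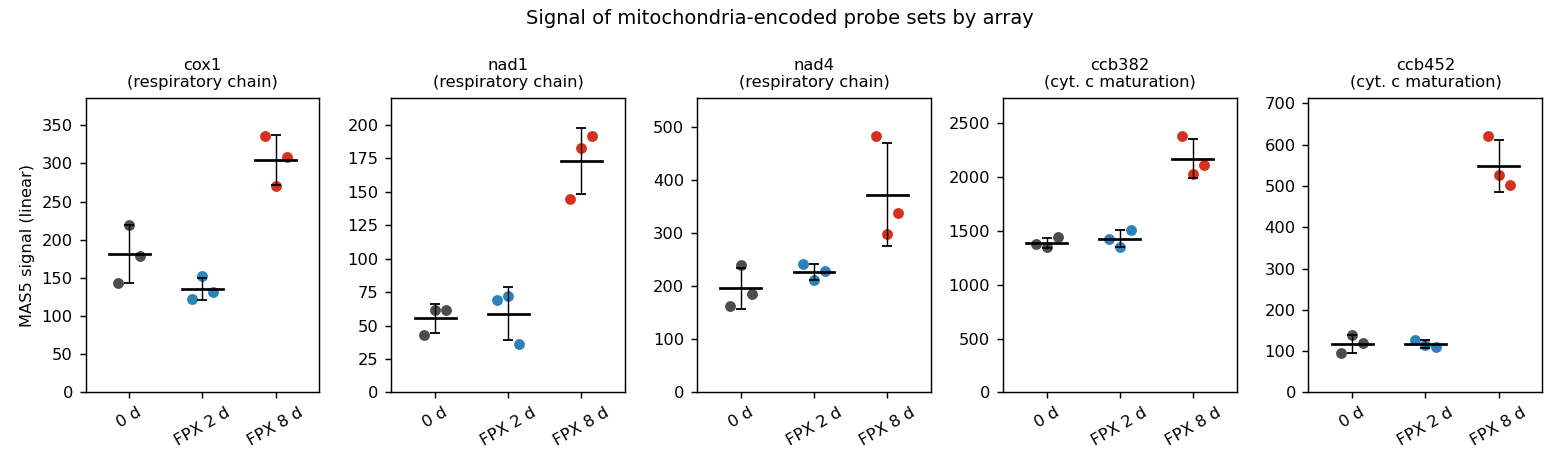
Signal of the 5 mitochondria-encoded probe sets on each array (MAS5 signal, linear axes that start at 0 and differ between panels), with the 3 arrays of each time as points, the group mean as a wide bar and its SD as an error bar. In every panel the 3 arrays at 8 d lie above all arrays at 0 d and 2 d, and the 0 d and 2 d arrays overlap.

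Among the respiratory chain genes, cox1 had signals of 144, 220 and 179 at 0 d. After 2 d of FPX they were 123, 152 and 132, and after 8 d they were 336, 270 and 308. The 2 d arrays lay low in the 0 d range or under it, with 1 of them above the lowest 0 d array, while each 8 d array was above every earlier one. The group means were 181 ± 38.0 at 0 d, 135.6 ± 14.8 at 2 d and 304.7 ± 32.9 at 8 d (SD, n = 3). On the log2 scale cox1 changed by -0.36 ± 0.14 (SE) at 2 d and by 0.72 ± 0.14 at 8 d, both against 0 d, and by 1.08 from 2 d to 8 d. Its later change therefore started from a lower 2 d level, which is why the 8 d mean was 2.25 times the 2 d mean but 1.68 times the 0 d mean.

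The nad1 probe set was dim on every array. Its signals were 42.6, 61.5 and 61.8 at 0 d, then 68.8, 71.9 and 35.8 at 2 d, and 145, 183 and 191 at 8 d. One 2 d array lay under the whole 0 d group and the other 2 were above it, so the 2 d group spanned the 0 d range, while the 8 d arrays stood clear of both. The means were 55.3 ± 11.0, 58.9 ± 20.0 and 172.9 ± 24.7 (SD, n = 3). The log2 changes against 0 d were 0.04 ± 0.19 at 2 d and 1.41 ± 0.19 at 8 d, the latter a 3.13-fold difference in mean signal. No respiratory member had a larger change at 8 d.

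The second complex I transcript, nad4, gave 164, 240 and 185 at 0 d. It gave 241, 211 and 229 at 2 d, and 483, 298 and 338 at 8 d. The 2 d arrays sat in the upper part of the 0 d range or just above its top, and the lowest 8 d array was above all of them. The means were 196.2 ± 39.2, 227.0 ± 15.2 and 372.8 ± 97.1 (SD, n = 3). The changes against 0 d were 0.21 ± 0.17 at 2 d and 0.86 ± 0.17 at 8 d on the log2 scale. Relative to its mean the 8 d spread was the widest among the 5, with 1 array far above the other 2.

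Of the cytochrome c maturation genes, ccb382 had a bright probe set with little spread between arrays. It gave 1375, 1347 and 1445 at 0 d, 1430, 1349 and 1511 at 2 d, and 2380, 2032 and 2110 at 8 d. The first 2 groups covered nearly the same range, and the 8 d arrays were apart from both. The means were 1389 ± 50.6, 1430 ± 81.1 and 2174 ± 183 (SD, n = 3). The log2 change was 0.04 ± 0.09 at 2 d and 0.64 ± 0.09 at 8 d.

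The ccb452 probe set gave 96.2, 139 and 119 at 0 d. At 2 d it gave 128, 114 and 111, inside the 0 d range, and at 8 d it gave 620, 525 and 501. The lowest 8 d array was far above the highest earlier one. The means were 118.0 ± 21.2, 117.8 ± 9.07 and 549.0 ± 62.7 (SD, n = 3), and the log2 changes against 0 d were 0.01 ± 0.12 at 2 d and 2.08 ± 0.12 at 8 d. That change was above those of 96.8% of all probe sets, and its change of 2.07 from 2 d to 8 d was above 99.2%. These ranks are a description, since ccb452 was chosen with its 8 d signal known. By its Affymetrix name this probe set is of the shared kind, whose probes can match more than 1 transcript, unlike the other 4.

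In order of log2 change at 8 d the members ran ccb452, nad1, nad4, cox1 and ccb382. The gaps between ccb452 and nad1 and between nad1 and nad4 were wider than either probe set's SE. The last 3 lay between 0.86 and 0.64, and each differed from the next by less than the larger of their SEs. From 2 d to 8 d the order was ccb452 at 2.07, nad1 at 1.37, cox1 at 1.08, nad4 at 0.65 and ccb382 at 0.60. Only cox1 and nad4 changed places between the orders.

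By the call rule, 5 of the 5 were higher at 8 d than at 0 d, where 54.9% of all probe sets were called higher, 36.1% lower and 91% in either direction. From 2 d to 8 d, 5 of 5 were called higher, against 43.9% of all probe sets called higher and 76% called in either direction. The 8 d arrays did not overlap the earlier group for 5 of 5 in both comparisons, which held in the same direction for 55.2% of all probe sets against 0 d and for 46.4% against 2 d. The members were chosen on these contrasts, so nothing is read from these counts. At 2 d against 0 d, 1 of 5 was called, cox1 with a lower signal, where 28.1% of all probe sets were called lower, 44.6% higher and 72.7% in either direction. The cox1 call was lost in 4 of 9 refits that each left out 1 array: without 0 d replicate 2, 0 d replicate 3, FPX 2 d replicate 1 or FPX 2 d replicate 3, with changes from -0.51 to -0.23 over all 9. It was also lost, at -0.26, when arrays were scaled on hybridization controls.

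The median change of the 5 was 0.04 at 2 d against 0.17 for all probe sets, and 1 of the 5, nad4, lay above the median of all. At 8 d their median was 0.86 against 0.36, with 5 of 5 above it, and from 2 d to 8 d it was 1.08 against 0.15, again with 5 of 5 above. These are changes and not levels. Since the members were chosen for their 8 d signal, their place above the median at 8 d is a description.

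Respiratory chain and cytochrome c maturation members were then set side by side as means of log2(signal + 16) on each array. The respiratory mean relative to its 0 d mean was 1.096, 0.88 and 1.01 on the 8 d arrays, and the maturation mean was 1.52, 1.29 and 1.28. Each 8 d array thus had the larger shift in the maturation pair. The class changes against 0 d were -0.04 and 0.02 at 2 d, and 0.995 and 1.36 at 8 d, in that order, and from 2 d to 8 d they were 1.03 and 1.34.

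The respiratory mean minus the maturation mean was -1.73, -1.46 and -1.61 at 0 d, -1.66, -1.50 and -1.84 at 2 d, and -2.02, -2.01 and -1.87 at 8 d. Its size at 1 time depends on probe brightness and only its movement between times is read. The 8 d arrays were lower than all earlier arrays, the nearest pair being -1.87 and -1.84, and the 0 d and 2 d arrays overlapped. The class difference in change was -0.06 at 2 d and -0.36 at 8 d against 0 d, and -0.30 between 2 d and 8 d.

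That lead of the maturation pair rested on ccb452. With ccb452 left out, an alternative chosen after seeing the data, the difference at 8 d turned to 0.36, because the remaining ccb382 changed least of the 5. Without nad1 it was -0.57, and with the 2807 dimmest probe sets left out, where nad4 and ccb382 remain, it was 0.22. Within each class the members differed more from each other than the classes did: ccb452 and ccb382 were 2.08 and 0.64 at 8 d, and nad1 and cox1 were 1.41 and 0.72. With 3 and 2 members chosen by result, no test of the class difference was made.

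**Figure D2:**
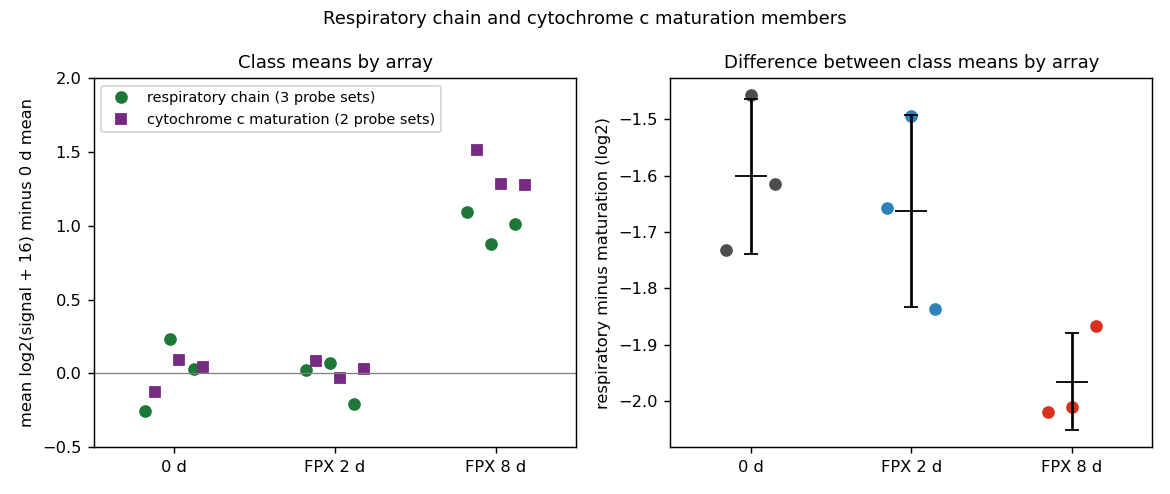
Mean log2(signal + 16) of the 3 respiratory chain members and the 2 cytochrome c maturation members on each array relative to the class's 0 d mean (left), and the respiratory mean minus the maturation mean on each array, with group means and SD (right). At 8 d the shift of the maturation mean is above that of the respiratory mean on all 3 arrays, and the difference is lower than at 0 d and 2 d, with its highest 8 d array at -1.87 close to the lowest 2 d array at -1.84.

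Single arrays moved several members at once. At 0 d, replicate 1 had the lowest signal of its group for 4 of the 5, with ccb382 as the exception. At 8 d, replicate 1 had the highest signal for 4 of the 5, with nad1 as the exception. Over the 9 arrays the log2 values of member pairs had Pearson r from 0.777 for nad1 with nad4 to 0.970 for ccb382 with ccb452, over 10 pairs. These values share their arrays and the step to 8 d that chose the members, and are a description.

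The size of the 8 d change depended on how arrays were brought to a common level, and its direction did not under the scalings tried. Against 0 d the 5 members ranged from 0.38 to 1.83 with array medians set to 0, from 0.35 to 1.78 after quantile normalization and from 0.88 to 2.33 with scaling on 7 hybridization control probe sets. The median of all probe sets moved too, to 0.11, 0.17 and 0.61 in that order, and after quantile normalization the lowest member, cox1, was above it. Setting medians to 0 and scaling on the controls move every probe set by the same amount in a comparison, by -0.18 and 0.10 at 2 d and by -0.25 and 0.25 at 8 d, so they change no member's place relative to the others or to that median. Quantile normalization moves probe sets unequally, and at 2 d it gave -0.29 for ccb452, which was 0.01 as deposited, and -0.68 for cox1.

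**Figure D3:**
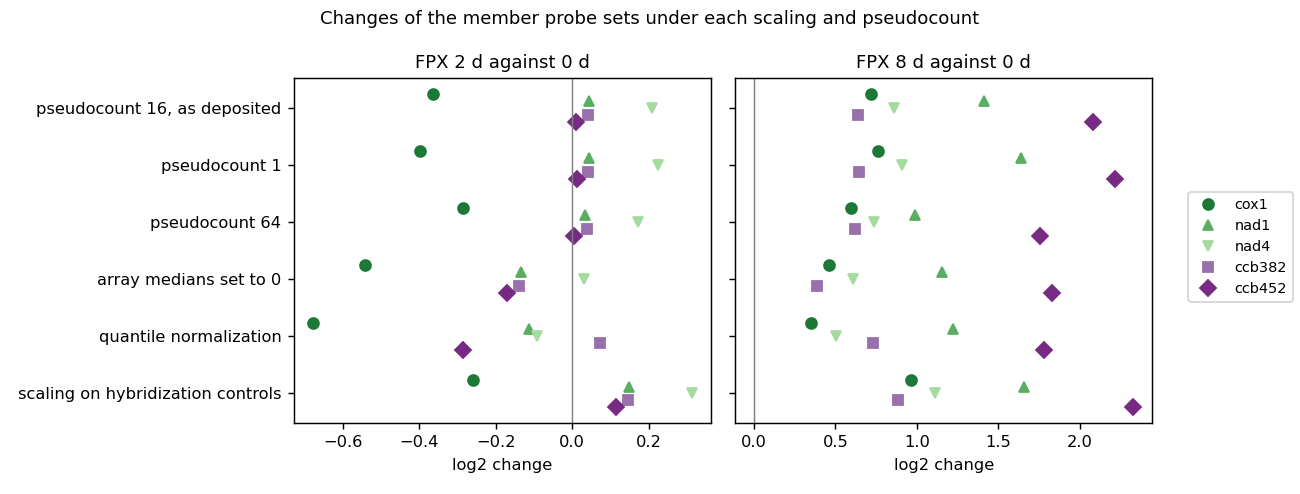
Log2 change of each member at 2 d and at 8 d against 0 d, for 3 pseudocounts and 3 other scalings of the arrays. At 8 d all points are above 0, and at 2 d cox1 is below 0 in every row while the other members lie near 0 or change side between rows.

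The members were mostly dim in this table. With the table cut into 4 bins of 2807 probe sets by mean log2 value, cox1, nad1 and ccb452 were in the dimmest bin, nad4 in the next and ccb382 in the brightest. On single arrays nad1 lay between the percentiles 0.205 and 15.4 and cox1 between 7.45 and 32.0, while ccb382 lay between 80.4 and 91.0. The median change at 8 d over all probe sets also ran with brightness, from 0.56 in the dimmest bin through 0.53 and 0.32 to -0.18 in the brightest. The part of brightness in the members' changes was not tested. The bright ccb382 changed by 0.64 in a bin whose median was -0.18, and nad1, cox1 and ccb452 changed by 1.41, 0.72 and 2.08 beside a bin median of 0.56. All were chosen for their 8 d signal, so nothing is read from their distance to these medians.

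Of 28 other mitochondrial gene names looked for, 1 had a probe set of its own in the table, nad9, a complex I subunit of the arm that reaches into the matrix. Its signals were 122, 101 and 111 at 0 d, 91.5, 152 and 89.0 at 2 d, and 186, 213 and 223 at 8 d. As with the members, the 8 d arrays were above all others and the earlier groups overlapped. The change was -0.04 ± 0.16 at 2 d, and at 8 d nad9 rose by 0.81 ± 0.16 against 0 d (limma adjusted p = 5.33e-04) and by 0.85 against 2 d (limma adjusted p = 5.995e-04). It was not part of the member list, but shares all arrays with it. It also comes from a table selected for differences between the times and hardly changed at 2 d. Its 8 d p-values are thus tied to that selection and give no separate support to the members' change. Names without a probe set here may have been left out by the same selection. Adding it to the respiratory class was an alternative chosen after seeing the data and gave a class difference of -0.41 at 8 d. A further 5 probe sets list several genes with at least 1 mitochondrial gene among them and are not named.

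Columbia plants carry a large copy of mitochondrial DNA on chromosome 2, so probes for mitochondrial transcripts and for such nuclear copies may not be told apart. Probe sets for 5 loci with codes that start with AT2G077 (AT2G07707, AT2G07708, AT2G07722, AT2G07741 and AT2G07751) were looked up after values had been seen, and all 5 are of the shared kind. At 8 d 5 of 5 rose against 0 d by limma, where 54.9% of all probe sets were called higher, by 0.85 to 1.64 with a median of 1.03, inside the members' range of 0.64 to 2.08. At 2 d 0 of 5 rose and 1, AT2G07708, fell by 0.29 with overlapping arrays (limma adjusted p = 0.0285), where 44.6% of all probe sets were called higher and 28.1% lower. Since the table was selected for differences between the times, nothing is read from these counts. Whether their signal comes from the mitochondrial or the nuclear copy was not tested, and the same holds for the members.

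Nuclear genes of the same complexes were lower at 8 d more often than higher in the deposited scaling, while on the hybridization controls as many rose as fell. Of 35 measured genes for complexes I to IV, cytochrome c and the ATP synthase, 6 rose and 24 fell against 0 d, where 54.9% of all probe sets were called higher and 36.1% lower, and their median change was -0.34 against 0.36 for all. Setting array medians to 0 gave 4 risers and 29 fallers at 8 d, against 8 up and 10 down after quantile normalization, and 8 up and 8 down on the hybridization controls. Over all probe sets these counts were 4934 up and 4609 down, 5222 and 4244, and 6640 and 3141, in that order. The list's median stayed under that of all: -0.59 against 0.11, -0.06 against 0.17 and -0.09 against 0.61. At 2 d 2 rose and 21 fell, with a median of -0.25, which became 3 up and 9 down after quantile normalization and 4 up and 12 down on the hybridization controls. Over all probe sets the 2 d counts were 5005 up and 3155 down, 3694 and 3542, and 5630 and 2400, in that order. From 2 d to 8 d 6 rose and 11 fell, but 11 rose and 5 fell after quantile normalization. Over all probe sets these were 4928 up and 3606 down, and 4736 up and 3700 down. Of the 35, 30 were in the brightest bin, where lower calls also outnumbered higher ones at 8 d, with 41.9% of its probe sets called higher, 48.9% lower and a median of -0.18. The nuclear list, by locus codes from general knowledge that the annotation used here does not describe, was put together with earlier results of these data known.

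In complex I, the partner complex of nad1, nad4 and nad9, 16 of 38 listed nuclear names were measured. At 2 d 0 rose and 11 fell, and at 8 d 2 rose and 13 fell, with a median of -0.40. Among all probe sets 44.6% were called higher and 28.1% lower at 2 d, and 54.9% and 36.1% at 8 d. AT3G08610 had mean signals of 9687, 5709 and 4119 at 0, 2 and 8 d and fell by 1.23 at 8 d (limma adjusted p = 2.24e-07). FRO1, the iron-sulphur subunit whose loss is known for cold sensitivity, fell by 0.77 and AT3G12260 by 0.60, while AT5G18800 rose by 0.59. One listed gene is annotated here as OEP16-3, a name for a plastid envelope pore, and fell by 0.43. The 8 d count for complex I was 2 up and 5 down after quantile normalization and 3 up and 4 down on the hybridization controls. All probe sets gave 5222 up and 4244 down, and 6640 up and 3141 down, under these scalings.

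In complex IV, the partner complex of cox1, 4 of 9 listed names were measured, and at 8 d 1 rose and 2 fell. The shares of all probe sets called at 8 d were 54.9% higher and 36.1% lower. AT5G61310 went from a mean signal of 238 through 481 to 1054, and its rise of 2.08 at 8 d (limma adjusted p = 6.68e-08) was as large as that of ccb452. AT4G37830 fell by 0.39 and AT3G62400 by 0.35 at 8 d, and AT2G47380 fell by 0.40 at 2 d. Of the c-type cytochrome genes, which receive the haem that CcmF proteins attach, CYTC-2 fell by 1.05 and CYTC-1 by 0.54 at 8 d. In the list of complex III and cytochrome c, 11 of 17 names were measured, with 2 up and 7 down at 8 d. AT5G25450 of that list fell by 1.83 and AT2G01090 rose by 0.49. On the hybridization controls 5 of these 11 genes and 1 of the 4 of complex IV were called at 8 d.

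For complex II, which has only nuclear genes in the list, SDH1-1 rose by 0.40 and SDH2-1 fell by 0.30 at 8 d, with 2 of 11 names measured and 1 of the 2 called under each of the 3 other scalings. Of the ATP synthase, 2 of 11 names were measured. AT5G47030 fell by 0.51 at 8 d. AT1G51650 fell by 0.22 at 2 d, a call lost without 0 d replicate 1 or 3 or FPX 2 d replicate 1 or 2, and under quantile and hybridization control scaling. Of the alternative NAD(P)H dehydrogenases and oxidases, 2 of 24 names were measured: NDB2, an external NADH dehydrogenase, fell by 1.13 at 2 d and 0.83 at 8 d, and NDC1 rose by 0.36 at 2 d and fell by 0.41 at 8 d. With array medians set to 0, 1 of these 2 was called at 2 d, and on the hybridization controls 1 at 8 d. Over all probe sets 3542 were called higher and 4116 lower in the first case, and 6640 and 3141 in the other.

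The nuclear partner genes of cytochrome c maturation were measured for 1 of 3 names. CCMH, which belongs to the same haem lyase as the CcmF proteins, gave 163, 127 and 197 at 0 d, 160, 194 and 184 at 2 d, and 253, 238 and 260 at 8 d. Its 8 d arrays were above the earlier ones, which overlapped. It changed by 0.15 ± 0.13 at 2 d and rose by 0.60 ± 0.13 at 8 d (limma adjusted p = 0.00112), a rise not called after quantile normalization. Among all probe sets 54.9% were called higher at 8 d than at 0 d, and 55.2% did not overlap in that direction. CCMH was in the dimmest bin, whose median change at 8 d was 0.56, so its rise was near that of its bin.

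Of 9 names listed as nuclear factors for the members' own transcripts, 1 was measured, AT5G46920. It gave 221, 259 and 224 at 0 d, 385, 402 and 275 at 2 d, and 504, 583 and 549 at 8 d, with no overlap between the 3 times. It rose by 0.55 at 2 d (limma adjusted p = 0.00345, not called after quantile normalization) and by 1.16 at 8 d (limma adjusted p = 6.40e-06). Its 2 d arrays were thus already above its 0 d arrays, which held for 0 of the 5 members. At 2 d 76.3% of all probe sets had groups that did not overlap, in either direction, and 44.6% were called higher. The members were chosen for their 8 d signal, so nothing is read from this contrast with AT5G46920. The mitochondrial RNA polymerases had 0 of 2 names measured, and a list of other mitochondrial RNA factors 0 of 10.

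Plastid-encoded probe sets went down at 8 d, where the mitochondrial members, chosen for their higher signal, went up. Of 58 plastid-encoded probe sets 0 rose and 58 fell at 8 d by limma, with a median of -1.12, and at 2 d 1 rose and 42 fell, with a median of -0.49. Among all probe sets 54.9% were called higher and 36.1% lower at 8 d, and 44.6% and 28.1% at 2 d. All these counts come from a table selected for differences between the times. At 8 d 52 fell after quantile normalization and 56 on the hybridization controls. On the 8 d arrays the median change from 0 d was 1.19, 0.58 and 0.75 for the 5 members, -0.30, -0.31 and -0.32 for the nuclear respiratory genes, and -1.12, -1.11 and -1.28 for the plastid probe sets. The 3 medians stood in this order on each of the 8 d arrays. The members were chosen for their higher signal on these arrays, so nothing is read from their place in that order.

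**Figure D4:**
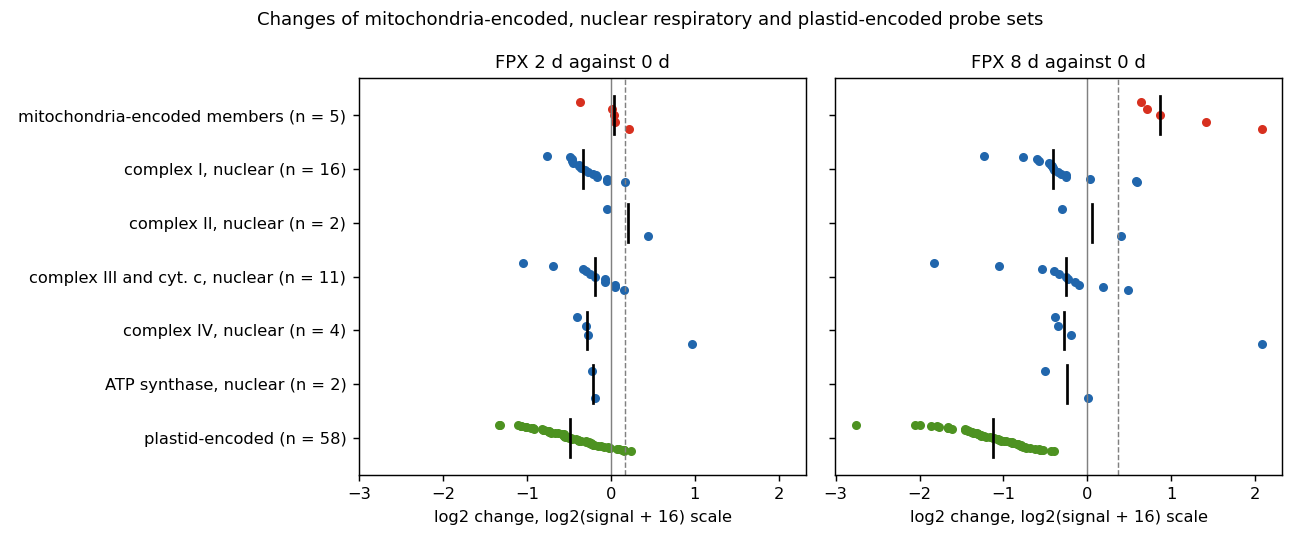
Log2 change of each member, the 35 nuclear respiratory and ATP synthase genes and the 58 plastid-encoded probe sets at 2 d and at 8 d against 0 d (1 point a probe set, vertical bars for list medians, dashed line for the median of all probe sets). At 8 d the members lie between 0.64 and 2.08, the plastid probe sets are all below 0, and the nuclear genes lie mostly below 0 with AT5G61310 at 2.08.

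Markers of cell types moved with the same groups. Beside their counts, 44.6% of all probe sets were called higher and 28.1% lower at 2 d, and 54.9% and 36.1% at 8 d. The summed signal of 4 green tissue markers (RCA and 3 LHCB4 genes) ran from 46421 to 52076 before transfer, from 38747 to 40749 after 2 d and from 20953 to 25422 after 8 d, and 4 of 4 fell at 8 d. The summed signal of 3 dividing cell markers (TOPII, AUR1 and AUR2) was 773 to 813, then 2605 to 2747, then 1710 to 2060, and 3 of 3 rose at 2 d and at 8 d. The genes listed as root markers, PYK10 and NAI2, had a sum of 17415 to 17631 before transfer, 13315 to 14282 after 2 d and 13539 to 14710 after 8 d. At 2 d 2 of 2 fell, and at 8 d 1 of 2 fell, with NAI2 at -0.02. PYK10 made up most of the 0 d sum, with a mean signal of 13680 against 3872 for NAI2. This sum is thus not read as an amount of root.

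At 8 d 2 of 2 stomatal regulators, STOMAGEN and FMA, fell, their sum going from between 631 and 766 to between 92.4 and 156. STOMAGEN made up most of the 0 d sum, with a mean signal of 571 against 122 for FMA. The sum is thus not read as an amount of stomata. The 2 phloem markers fell, from a sum of 3156 to 3416 down to 2015 to 2269, and the trichome marker SIM fell by 1.51. The seed marker OLEO3 fell by 0.58 at 2 d and rose by 0.86 at 8 d. On the hybridization controls 1 of the 2 stomatal regulators, 1 of 2 phloem markers and 0 of 2 root markers were called at 8 d. No measured marker was at 0 on any array. The part of cell makeup in the members' changes was not tested.

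Genes with the most similar course over the 9 arrays were sought by Pearson r of log2(signal + 16) among 904 probe sets with 1 gene and a symbol of its own. For cox1 they were TBL39 at 0.958, DELTA-OAT at 0.957 and UGT73B4 at 0.949. For nad1 they were U2AF35B at 0.972, CBL at 0.954 and FHL at 0.952, and for nad4 MBAC1 at 0.945, NET4B at 0.931 and LSM3A at 0.928. The genes most like ccb382 were AAPT2 at 0.987, ATSIK at 0.982 and PMM at 0.980, and those most like ccb452 were U2AF35B at 0.986, ENGase85B at 0.984 and GID1A at 0.983. U2AF35B was therefore shared by nad1 and ccb452. Of the 39 nuclear genes of the lists above, 10 were in this search, since the others carry a locus code alone. These correlations share arrays and the step to 8 d, and are given without a p.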

How the data were processed

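Total RNA of whole seedlings was hybridised to 9 Affymetrix arrays, 3 a group, and groups were taken from the labels. The authors deposited 1 table of array intensity on a linear scale, made with MAS5 per the submitters' processing notes; its version, scaling and selection rule are not given in the sources used here. It held 11249 probe sets, 21 of them controls. The platform annotation gave 1 gene for 5981 of the 11228 tested, several for 222 and none for 5025; 5962 matched the RefSeq table by identifier, and the 5 members by symbol or synonym.

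From these values log2(signal + 16) was fitted with limma 3.58.1 in R 4.3.3 (6 residual and 5.24 prior degrees of freedom), over all groups and probe sets, after tests on simulated data. Summaries and plots used Python 3.11.15, pandas 2.3.3, NumPy 2.4.6 and matplotlib 3.10.9. Without a detection call the distance of a signal from background is unknown. Precision is limited by the number of arrays, and p-values reflect the spread between these arrays alone.

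The members, lists and tests were chosen with earlier results of these data known. Beside the members, up to 4 called genes a list were named, by largest change, with every gene of the short lists on cytochrome c maturation and the members' own transcripts, and the 3 genes most like each member. Alternatives were other pseudocounts, other scalings, the 2807 dimmest probe sets left out, each array left out, a replicate block and changed class members.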

Additional observations from a re-analysis of the deposited data

Results flagged for a closer look

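For 5 members and for nad9 the change at 8 d against 0 d differed from that at 2 d. The contrast of 8 d with 2 d is itself the difference of these changes, since both use the same 0 d arrays. For the members, chosen with this step known, the log2 difference is a description: 1.08 for cox1, 1.37 for nad1, 0.65 for nad4, 0.60 for ccb382 and 2.07 for ccb452. For nad9, which was not used in the choice of members, it was 0.85 (limma adjusted p = 5.995e-04), and each of its 3 arrays at 8 d was above each at 2 d. The deposited table was itself selected for differences between the times, so this p-value is no independent support for the step. Of all 11228 probe sets, 76% were called between 8 d and 2 d in either direction.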

How the results depend on the processing

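All 5 members were called higher at 8 d than at 0 d and 2 d under each pseudocount, scaling and left-out array (range 5 to 5), and without the 2807 dimmest probe sets 2 of the 2 left were. At 2 d the count of 1 became 0 on the hybridization controls, 0 of 2 without the dimmest probe sets, and 0 to 1 with arrays left out. The labels number the replicates without saying that the numbers pair the samples, and the values do not settle it. Same-numbered arrays deviated together with r from -0.091 to 0.106 over 9 pairs, and other pairs from -0.093 to 0.109. Yet in 14 of 18 cases an array correlated best with its own number, so a pairing remains possible. With a replicate block the members called were 1, 5 and 5 at 2 d, at 8 d and between them, and all calls were 8115, 10191 and 8507 against 8160, 10217 and 8534.

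The class difference became 0.17 at 2 d, 0.22 at 8 d and 0.055 between them without the dimmest probe sets, 0.36 at 8 d and 0.44 from 2 d without ccb452, -0.57 at 8 d without nad1 and -0.56 at 8 d after quantile normalization. At 2 d signs turned for nad1 (-0.14 with medians set to 0, -0.11 quantile, -0.092 to 0.29 with arrays left out), nad4 (-0.092 quantile), ccb382 (-0.14 medians), ccb452 (-0.17 medians, -0.29 quantile, -0.11 to 0.12 with arrays left out) and nad9 (0.065 hybridization controls, -0.26 to 0.079 with arrays left out). With medians set to 0 or control scaling every probe set moves alike, by -0.18 or 0.10 at 2 d, so those turns lie in the construction and say nothing of single genes. The cause of the turns after quantile normalization was not tested.

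Of all calls at 2 d, 61.3% were higher as deposited, 46.3% with medians set to 0, 51.1% after quantile normalization and 70.1% on the hybridization controls. Dim signals of unknown distance from background, 3 arrays a time and a table already selected for differences limit every value.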
